A study of Mus musculus with 12 samples.

Results

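The genes here encode surface proteins used to gate mouse erythroblasts, and integrins and adhesion molecules, some of which hold erythroblasts to macrophages and matrix. They were chosen by symbol from the FPKM table and number 10 names of 29838 genes: Ptprc, Itgam and Ly6g of the negative gate, Cd44 of the stage gate, the integrin genes Itgb2, Itgal, Itgb1, Itga4 and Itga5, and Maea. The name Itgam is carried by 2 records, so the 10 names covered 11 records, and all 11 passed the filter on low values described below.

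RNA was sequenced from bone marrow erythroblasts of male C57BL/6 wild-type mice aged 8 weeks, with no treatment or genetic change in any group. There were 12 libraries in 4 groups of 3, which were proerythroblasts (Pro) and basophilic (Baso), polychromatic (Poly) and orthochromatic (Ortho) erythroblasts. CD45-positive cells were first removed with magnetic beads. Viable cells negative for CD45, CD11b and GR1 were then sorted. Pro stained strongly for CD44 and weakly for Ter119, and the later stages were Ter119-positive cells separated by CD44 against forward scatter. The sources used here do not state whether the 3 libraries of a stage came from separate mice, so the p-values measure only the spread between these libraries.

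Integrins are receptors made of one alpha and one beta chain. The beta1 chain pairs with alpha4 to bind VCAM1 and fibronectin and with alpha5 to bind fibronectin, and both pairs anchor erythroblasts in the erythroblastic island, in which maturing erythroblasts surround a central macrophage. The beta2 chain occurs on leukocytes, where it pairs with alphaL (LFA-1) and alphaM (CD11b, Mac-1) to bind ICAMs and complement fragments. CD45, the product of Ptprc, is a tyrosine phosphatase of nucleated blood cells that activates SRC family kinases. Ly6g encodes a GPI-anchored protein of neutrophils that anti-GR1 antibodies bind. CD44 binds hyaluronan, and its surface level falls as erythroblasts mature. Maea was described as an attachment protein between erythroblasts and macrophages and is also a RING subunit of the CTLH ubiquitin ligase.

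FPKM is the number of sequenced fragments scaled by transcript length and by library size, so levels can be set side by side between genes. The test was limma on log2(FPKM + 1), applied to the 12994 genes that reached 1 FPKM in 3 or more libraries, and all adjusted p-values are from that model. A gene was called when its adjusted p was under 0.05 and its log2 fold change at least 1 in either direction. A gene that passed the adjusted p alone is described as higher or lower. On this scale the change of a gene of low FPKM is understated. The stage comparisons share libraries. The depth behind each value is unknown, because whole fragments could not be recovered from the lowest values.

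In Pro the most abundant of these transcripts was Itgb1, with a mean FPKM of 72.5, followed by Itgb2 with 52.5 and Maea with 41.6. In Ortho the first place was taken by Itgb2, with 112.7, followed by the summed Itgam records with 68.5, Ptprc with 57.5 and Cd44 with 54.9, while Itgb1 had fallen to 32.6. In Pro the library values of Maea and Itga4 overlapped, as did those of Itga4 and Cd44, Cd44 and summed Itgam, summed Itgam and Ptprc, and Itgal and Itga5, so the order within those pairs is not separated from the spread. In Ortho the same held for summed Itgam and Ptprc, Ptprc and Cd44, Cd44 and Ly6g, Itga4 and Itgb1, and Maea and Itgal. Itga5 had the lowest mean of the 10 names in every stage, with Itgam taken as the sum.

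**Figure D1:**
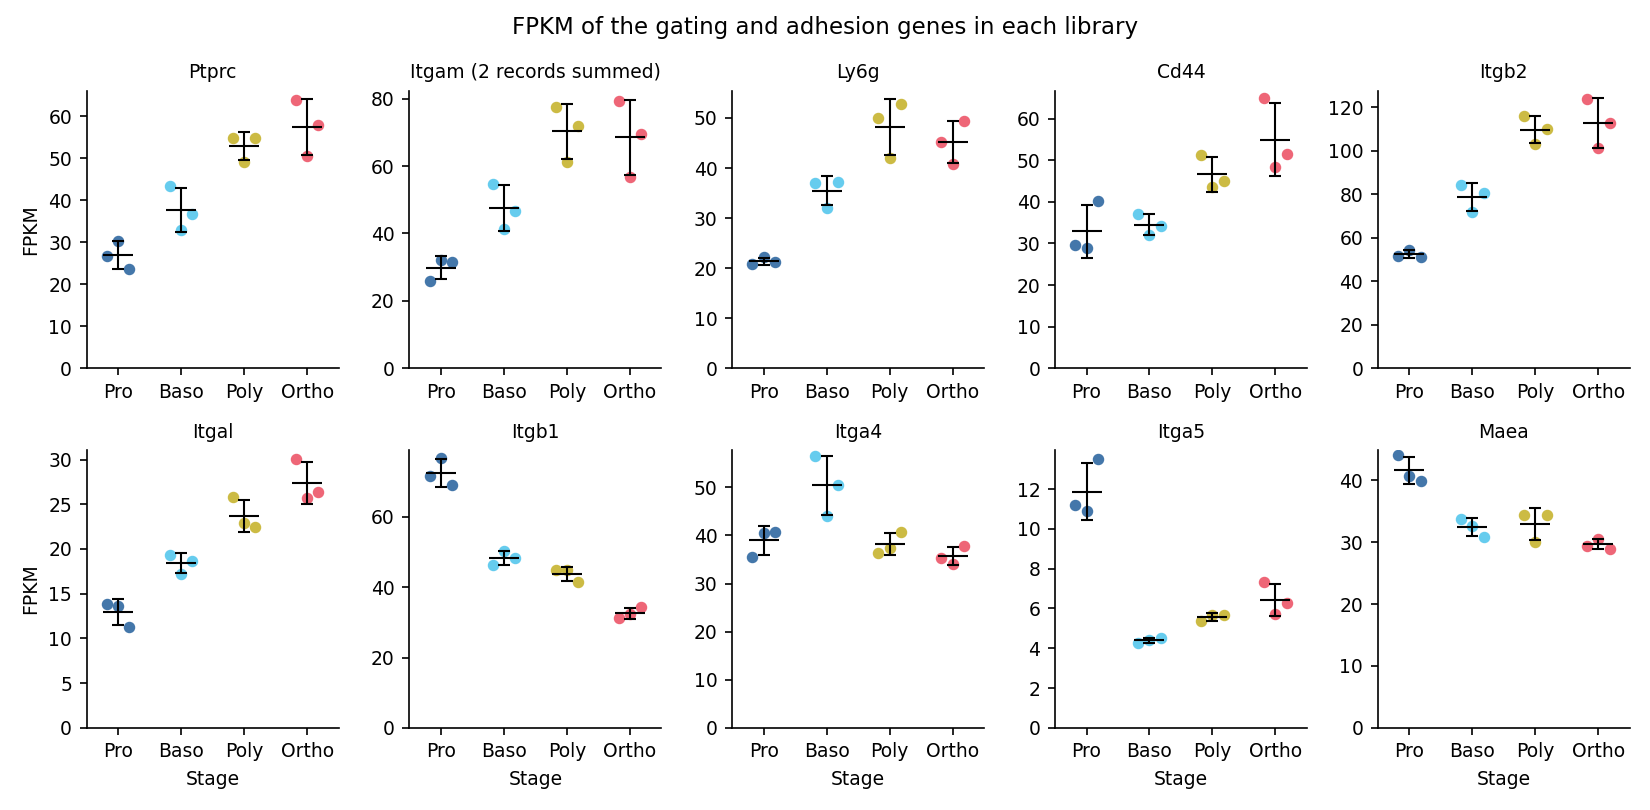
FPKM (y axis, from 0) of the 10 genes in the 4 stages (x axis). Each point is 1 library, and the black bar and whiskers are the mean and SD of 3 libraries; the leukocyte genes Ptprc, Itgam, Ly6g, Itgb2 and Itgal stood lowest in Pro, and Itgb1 fell from a mean of 72.5 in Pro to 32.6 in Ortho.

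Of the 11 records, 2 were called in Baso compared with Pro, against 10.4% of all genes tested. They were Itga5, which was lower (8.54% of all genes were called lower), and the second Itgam record, which was higher (1.82% of all genes were called higher). The value of that record alone is uncertain, for the reason given below, and the sum of both Itgam records was not called (log2 fold change 0.65). By the adjusted p alone 6 records were higher and 3 lower in Baso, against 14.9% and 42.1% of all genes. None was called in Poly compared with Baso, where 0.516% of all genes were called, and there 4 records were higher and 1 lower by the adjusted p alone, against 6.58% and 5.77% of all genes. None was called in Ortho compared with Poly, where 5.86% of all genes were called. In that step 1 record was lower and none higher by the adjusted p alone, against 21.7% and 4.43% of all genes. Between Ortho and Pro 6 records were called, against 30.1% of all genes. Of these, 5 were higher and 1 lower, where 6.33% and 23.8% of all genes were called higher and lower. By the adjusted p alone 6 were higher and 3 lower in Ortho, against 22.7% and 53.2% of all genes. The median log2 fold change of the 11 records in Ortho compared with Pro was 0.84, and that of all genes tested was -0.42.

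The median of all genes depends on how libraries are scaled. Hemoglobin transcripts made up between 6.98% and 10.66% of the summed FPKM in Pro and between 47.23% and 52.61% in Ortho. Once hemoglobin genes were left out before rescaling, the median over all genes for Ortho against Pro was -0.03, and 63.3% of calls were higher, against 21% with the deposited values. With libraries centred on their median these values were -0.03 and 61.6%, and with libraries rescaled to the same sum -0.72 and 6.2%. In Baso compared with Pro 17.6% of calls were higher with the deposited values, 53.7% without hemoglobin genes, 57.5% after centring and 8.76% at the same sum. In Ortho compared with Poly the share was 18% with the deposited values, 28.6% without hemoglobin genes, 31.0% after centring and 9.44% at the same sum. For Ptprc, Ly6g, Itgb2, Itgal and Cd44 the direction in Ortho compared with Pro, and for Itgb1 and Itga5 as well, was the same under all of these scalings and past the adjusted p in each. This did not hold for Maea and Itga4, whose values follow.

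**Figure D2:**
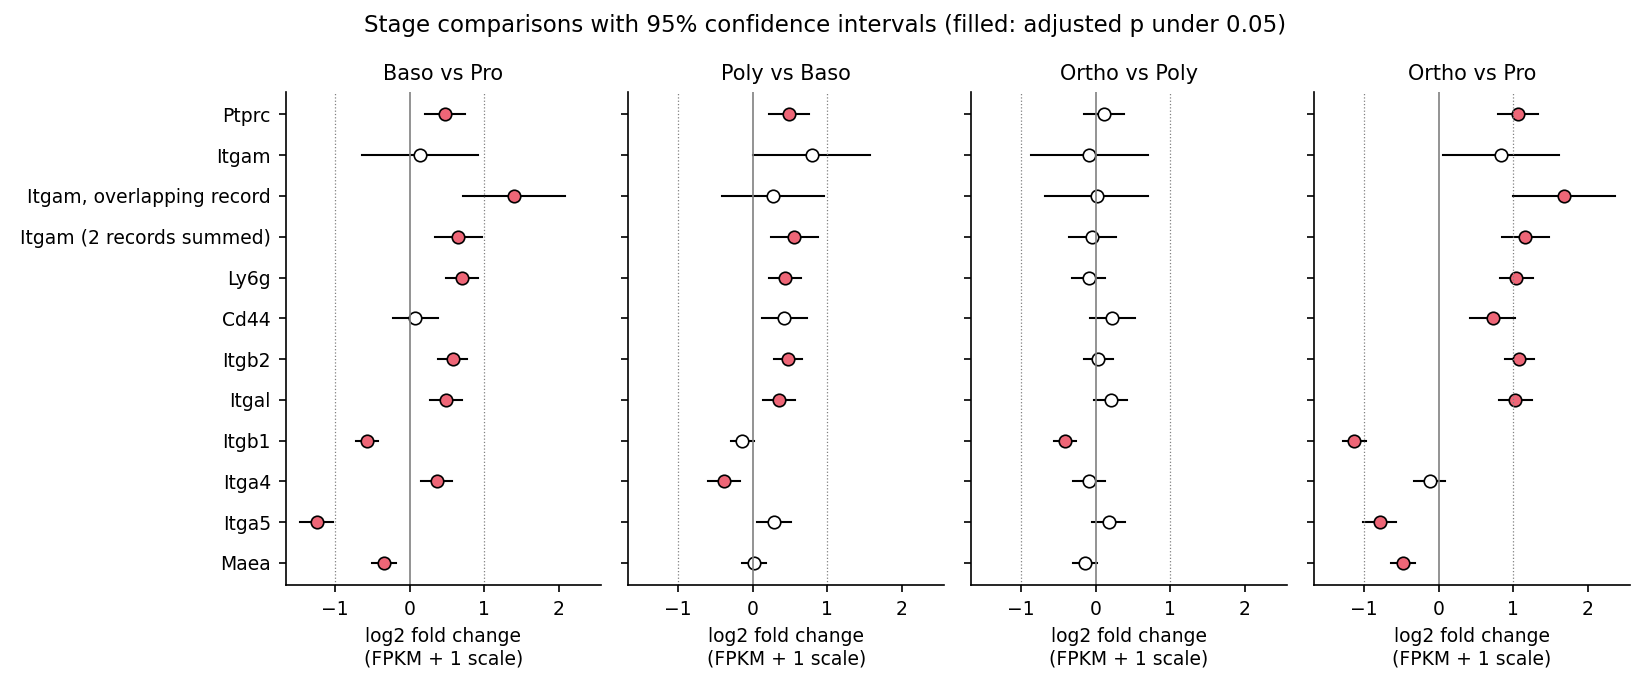
Log2 fold change on the FPKM + 1 scale (x axis) of each record in 4 stage comparisons, with 95% confidence intervals from limma. Filled points had an adjusted p under 0.05 and dotted lines mark a log2 fold change of 1 in either direction; 9 of the 11 single records were filled in Ortho vs Pro and 1 in Ortho vs Poly, and the summed Itgam row is an addition.

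Transcripts of the 3 genes of the negative gate were measured in every library, although the cells had been depleted of CD45-positive cells and sorted as negative for the 3 proteins, and with the Itgam records summed all 3 genes stood higher in Ortho than in Pro. Ptprc (ENSMUSG00000026395, minus strand, chr1:138062861-138175708 on mm10) had an FPKM of 26.7, 30.3 and 23.6 in Pro, 43.4, 33.1 and 36.7 in Baso, 54.8, 49.1 and 54.9 in Poly, and 63.9, 50.6 and 57.9 in Ortho. The Pro libraries were below all others, the Baso libraries were below those of Poly and Ortho, and Poly and Ortho overlapped. The means of Pro and Ortho were 26.9 ± 3.34 and 57.5 ± 6.70 (SD, n = 3), with a fitted log2 change of 1.07 (standard error 0.12, adjusted p = 9.07e-06). On the log2 scale Ptprc rose by 0.47 from Pro to Baso (adjusted p = 0.00624) and by 0.49 from Baso to Poly (adjusted p = 0.0288). With libraries rescaled to the same sum the first of these had an adjusted p of 0.0771. The second was lost when any of 5 libraries was left out (Baso replicates 2 and 3 and the 3 Poly libraries), with adjusted p-values of 0.0516 to 0.0965. From Poly to Ortho the log2 difference was 0.11 (95% interval -0.16 to 0.38).

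Ly6g (ENSMUSG00000022582, plus strand, chr15:75155240-75159126) had an FPKM of 20.8, 22.2 and 21.2 in Pro, 37.0, 32.1 and 37.2 in Baso, 49.9, 42.1 and 52.8 in Poly, and 45.2, 40.9 and 49.3 in Ortho. The 3 Pro libraries lay close together and below all others, and Poly and Ortho overlapped. The stage means, from Pro to Ortho, were 21.4 ± 0.721, 35.5 ± 2.90, 48.3 ± 5.57 and 45.2 ± 4.22 (SD, n = 3). Ly6g rose from Pro to Baso by a log2 fold change of 0.70 (standard error 0.10, adjusted p = 0.000126), and stood higher in Ortho than in Pro by 1.04 (standard error 0.10, adjusted p = 2.23e-06). It was higher in Poly than in Baso by 0.43 (adjusted p = 0.0216), with adjusted p-values of 0.076 to 0.0779 when Baso replicate 2 or Poly replicate 1 or 3 was left out. Among the tested genes, 69.6% had a lower mean than Ly6g in Pro and 90.4% in Ortho.

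Itgam encodes the alphaM chain, CD11b, and had to be read from 2 records that share most of their sequence. The first (ENSMUSG00000030786, plus strand, chr7:128062640-128118491) and the second (ENSMUSG00000108596, named Gm49368 in GENCODE M21, plus strand, chr7:128062683-128128160) share 3450 exonic bases, which are 68.7% of the first and 71.8% of the second. Of all stretches of 100 bases in their transcripts, 64.3% and 75.5% occur in both or in another gene. How fragments from the shared exons were handled is not given in the sources used here. The value of each record alone is therefore uncertain, and so is the level of their sum. The share of the first record in the sum ranged from 34.97% to 86.54% between libraries. The first record had an FPKM of 14.2, 27.7 and 18 in Pro, 30.7, 19.02 and 16.4 in Baso, 53.0, 25.1 and 39.2 in Poly, and 53.4, 22.8 and 35.5 in Ortho. Its coefficient of variation was 34.62% to 41.3% within a stage, and Pro and Ortho overlapped. The second record had 11.8, 4.31 and 13.6 in Pro, 23.9, 22.2 and 30.4 in Baso, 24.5, 36.2 and 32.7 in Poly, and 25.8, 34.0 and 34.0 in Ortho, with every Pro library below all others.

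Summing the 2 records in each library, which was added after the data were seen, gave 25.9, 32.0 and 31.6 in Pro, 54.6, 41.3 and 46.8 in Baso, 77.5, 61.3 and 71.9 in Poly, and 79.2, 56.7 and 69.5 in Ortho. The coefficient of variation within a stage was then 11.4% to 16.43%, and Pro, Baso and Poly did not overlap, while Ortho overlapped with Poly. The sum was higher in Ortho than in Pro by a log2 difference of 1.16 (standard error 0.14, adjusted p = 1.73e-05), in Baso than in Pro by 0.65 (adjusted p = 0.00244) and in Poly than in Baso by 0.56 (adjusted p = 0.0316). For the first record alone the Ortho against Pro difference was 0.84 (standard error 0.36) with an adjusted p of 0.0508, and for the second alone 1.68 (standard error 0.31) with 0.000439. The first record passed the threshold when any of 5 libraries was left out (Pro 2, Baso 1, Poly 1, Poly 2 or Ortho 2), with adjusted p-values from 0.0157, and with the replicate number as a block its adjusted p was 0.047. Its Poly against Baso difference of 0.79 had an adjusted p of 0.169, and of 0.0154 with a replicate block fitted to the 3 stages after Pro.

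**Figure D3:**
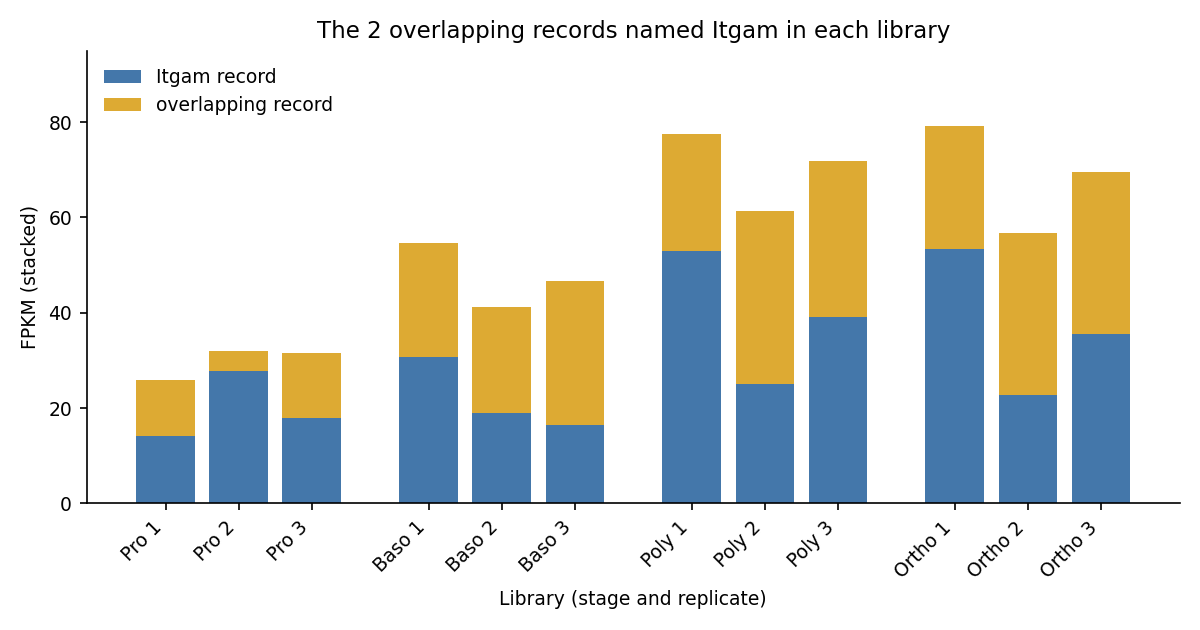
FPKM of the 2 overlapping records named Itgam in each of the 12 libraries (x axis), stacked so that the bar height is their sum (y axis, from 0). The first record made up 86.54% of the sum in Pro replicate 2 and 34.97% in Baso replicate 3, while the sums of the Pro libraries stayed between 25.9 and 32.0.

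Cd44 protein ordered the stages in the sort, high in Pro and lower with maturation, and its transcript was higher in Ortho than in Pro. Cd44 (ENSMUSG00000005087, minus strand, chr2:102811141-102901665) had an FPKM of 29.6, 29.0 and 40.3 in Pro, 37.1, 32.1 and 34.2 in Baso, 51.3, 43.5 and 44.9 in Poly, and 64.8, 48.3 and 51.5 in Ortho. Pro replicate 3 lay above all Baso libraries, and every Ortho library lay above every Pro library. The means of Pro and Ortho were 32.9 ± 6.35 and 54.9 ± 8.74 (SD, n = 3), with a fitted log2 change of 0.72 (standard error 0.14, adjusted p = 0.000544), short of the fold set for a call. Without hemoglobin genes this change was 1.21 and after centring 1.12, a call in both. Baso and Pro differed by 0.08 (95% interval -0.23 to 0.38), and this sign turned at the same sum or without Pro replicate 2. Poly against Baso gave 0.42 with an adjusted p of 0.0684, which became 0.00562 with a replicate block fitted to the 3 stages after Pro and 0.0356 without Pro replicate 3. Ortho against Poly gave 0.22 with an adjusted p of 0.298, and 0.0269 with that block. Relative to Itgb2, Cd44 stood at 0.571, 0.530 and 0.788 in the Pro libraries and at 0.408 to 0.522 in the other 9.

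CD44 acts with a set of partner genes, which were listed as the hyaluronan synthases, hyaluronidases and receptor, the ERM proteins that tie CD44 to actin, merlin, and the ESRP splicing regulators. Of the 12 genes, 7 were tested, and in Ortho compared with Pro 4 were called lower and none higher, with a median of -1.24 (all genes, -0.42). By the adjusted p alone 6 were lower and 1 higher. The shares of all genes in this comparison, which also stand behind the lists that follow, were 23.8% called lower, 6.33% called higher, and 53.2% lower and 22.7% higher by the adjusted p alone. The 3 ERM genes did not move in one direction. Between Pro and Ortho, Ezr (ezrin) fell from 108.2 ± 8.46 to 35.4 ± 1.72 (log2 fold change -1.59, adjusted p = 3.61e-08) and Rdx (radixin) from 70.5 ± 8.88 to 29.4 ± 4.98 (-1.24, adjusted p = 9.87e-06), while Msn (moesin) rose from 70.9 ± 4.45 to 116.5 ± 3.34 (0.71, adjusted p = 1.08e-06; SD, n = 3). Hmmr, a hyaluronan receptor of dividing cells, fell by 1.65 on the log2 scale (adjusted p = 1.43e-08). Hyal2, a hyaluronidase that is outside the naming rule and was singled out as the remaining call, fell by 1.74 (adjusted p = 8.87e-05). These 5 directions were the same under every scaling.

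The genes of the beta2 integrins were also higher in later stages. Itgb2 (ENSMUSG00000000290, plus strand, chr10:77530252-77565708) encodes the shared beta2 chain, CD18. Its FPKM was 51.8, 54.6 and 51.1 in Pro, 84.3, 71.9 and 80.9 in Baso, 116.1, 103.4 and 110.0 in Poly, and 124.1, 101.2 and 112.9 in Ortho. The Pro libraries and the Baso libraries each stood apart from all others, and Poly and Ortho overlapped. The mean rose from 52.5 ± 1.86 in Pro to 79.0 ± 6.41 in Baso, a log2 fold change of 0.58 (standard error 0.09, adjusted p = 0.000201), and to 109.8 ± 6.34 in Poly, a further 0.47 (adjusted p = 0.00865; SD, n = 3). From Poly to Ortho the log2 difference was 0.03 (95% interval -0.16 to 0.23), with a sign that turned at the same sum. Across the whole span Itgb2 was higher in Ortho by 1.08 (standard error 0.09, adjusted p = 5.69e-07). From Baso on Itgb2 had the highest level of the 10 names, and in Ortho it was above 96.4% of tested genes.

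Itgal (ENSMUSG00000030830, plus strand, chr7:127296260-127335138), the alphaL chain, had an FPKM of 13.9, 13.6 and 11.2 in Pro, 19.3, 17.2 and 18.7 in Baso, 25.8, 22.9 and 22.5 in Poly, and 30.1, 25.7 and 26.4 in Ortho. Each step from Pro to Poly separated the libraries, and Poly replicate 1 lay among the Ortho libraries. Itgal was higher in Ortho than in Pro by a log2 difference of 1.03 (standard error 0.10, adjusted p = 2.19e-06) and in Baso than in Pro by 0.48 (adjusted p = 0.00154). Its Poly against Baso difference of 0.35 had an adjusted p of 0.0433. It was no longer past the adjusted p in 8 of the 12 fits that left out 1 library (all Baso and Poly libraries and Ortho replicates 2 and 3), with values of 0.0529 to 0.143, and the adjusted p was 0.00854 with a replicate block fitted to the 3 stages after Pro. Ortho against Poly gave 0.20 with an adjusted p of 0.182, and of 0.0365 with the block. The calls of Itgb2, Itgal, Ptprc and Ly6g in Ortho rested on the fold threshold as well as on the p: at the same sum their log2 fold changes were 0.72, 0.68, 0.71 and 0.68, all past the adjusted p and under 1.

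The beta1 chain moved the other way. Itgb1 (ENSMUSG00000025809, plus strand, chr8:128685654-128733200) had an FPKM of 71.6, 76.7 and 69.1 in Pro, 46.3, 50.4 and 48.3 in Baso, 44.9, 44.9 and 41.6 in Poly, and 31.2, 32.3 and 34.3 in Ortho. No 2 stages overlapped, although the gap between Baso and Poly was small. Its mean over 3 libraries fell from 72.5 ± 3.89 (SD) in Pro to 32.6 ± 1.57 in Ortho, a log2 fold change of -1.13 (standard error 0.07, adjusted p = 6.67e-08). Without hemoglobin genes this change was -0.65 and after centring -0.73, past the adjusted p and short of the fold for a call. The step from Pro to Baso was -0.57 (adjusted p = 3.5e-05), that from Baso to Poly -0.14 (95% interval -0.29 to 0.01) and that from Poly to Ortho -0.41 (adjusted p = 0.000668). Itgb1 was the 1 record past the adjusted p in the last step.

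Itga5 (ENSMUSG00000000555, minus strand, chr15:103344286-103366763), the alpha5 chain of the fibronectin receptor, had an FPKM of 11.2, 10.9 and 13.5 in Pro, 4.24, 4.43 and 4.51 in Baso, 5.36, 5.68 and 5.69 in Poly, and 7.31, 5.74 and 6.27 in Ortho. It was lowest in Baso, and each later stage lay above the one before without overlap, while no later library reached a Pro library. The mean was 11.9 ± 1.42 in Pro and 4.40 ± 0.138 in Baso (SD, n = 3), with a fitted log2 change of -1.25 (standard error 0.10, adjusted p = 3.65e-06). The value was -0.96 without hemoglobin genes and -0.95 after centring, past the adjusted p and short of the fold for a call. In Ortho compared with Pro it was -0.79 (adjusted p = 2.65e-05). The later steps were 0.29 (adjusted p = 0.0922) and 0.17 (adjusted p = 0.274).

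Itga4 (ENSMUSG00000027009, plus strand, chr2:79255426-79333123), the alpha4 chain of VLA-4, was highest in Baso. Its FPKM was 35.5, 40.6 and 40.8 in Pro, 56.5, 44.1 and 50.5 in Baso, 36.3, 37.4 and 40.7 in Poly, and 35.3, 34.1 and 37.8 in Ortho. Every Baso library lay above every other library, and Pro, Poly and Ortho overlapped. Itga4 rose from Pro to Baso by a log2 fold change of 0.36 (standard error 0.10, adjusted p = 0.00777), with an adjusted p of 0.15 at the same sum, and lower in Poly than in Baso by a change of -0.39 (adjusted p = 0.0277). The second was lost when Baso replicate 1 or 3 or Poly replicate 1 or 2 was left out, with adjusted p-values of 0.0695 to 0.0939. Ortho against Pro gave -0.12 (95% interval -0.33 to 0.09), and that sign depended on the scaling. It was -0.48 at the same sum, 0.36 without hemoglobin genes and 0.28 after centring, each past the adjusted p. Of the exonic bases of Itga4, 8.04% overlap Cerkl on the opposite strand, and the sources used here do not state whether counting used strand.

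Because FPKM is scaled by length, the chains could be set against each other within a library, which also removes the scaling of the library. The ratio of Itgb2 to Itgb1 was, from Pro to Ortho, 0.725 ± 0.0142, 1.64 ± 0.199, 2.51 ± 0.185 and 3.47 ± 0.449 (SD, n = 3), so that the more abundant beta chain transcript was Itgb1 in all Pro libraries and Itgb2 in all others. The ratio of Itga4 to Itga5 was 3.30 ± 0.373, 11.5 ± 1.71, 6.84 ± 0.283 and 5.59 ± 0.666 in the same order. The summed alpha4 and alpha5 transcripts amounted to 0.703 ± 0.0723 of Itgb1 in Pro and 1.29 ± 0.0675 in Ortho. In contrast, the summed alphaL and alphaM transcripts amounted to 0.814 ± 0.0394, 0.833 ± 0.0384, 0.854 ± 0.0382 and 0.848 ± 0.0332 of Itgb2 from Pro to Ortho. That ratio spanned 0.769 to 0.890 over the 12 libraries, while Itgb2 itself went from 51.1 to 124.1. The level of that ratio depends on the sum of the Itgam records, which is uncertain as described above.

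The other leukocyte genes kept a similar proportion to Itgb2 in every stage. Ptprc amounted to 0.454 to 0.555 of Itgb2 over the 12 libraries, Ly6g to 0.365 to 0.480, Itgal to 0.205 to 0.268 and summed Itgam to 0.501 to 0.668. The highest library was 1.22 times the lowest for Ptprc, 1.32 times for Ly6g, 1.31 times for Itgal and 1.33 times for summed Itgam. For Itgb1, Maea and Itga4 the highest ratio to Itgb2 was 5.59, 3.59 and 2.81 times the lowest. Cd44 lay between, at 1.93 times. These ratios share Itgb2 as the denominator and were chosen after the data were seen, so they are given as a description.

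**Figure D4:**
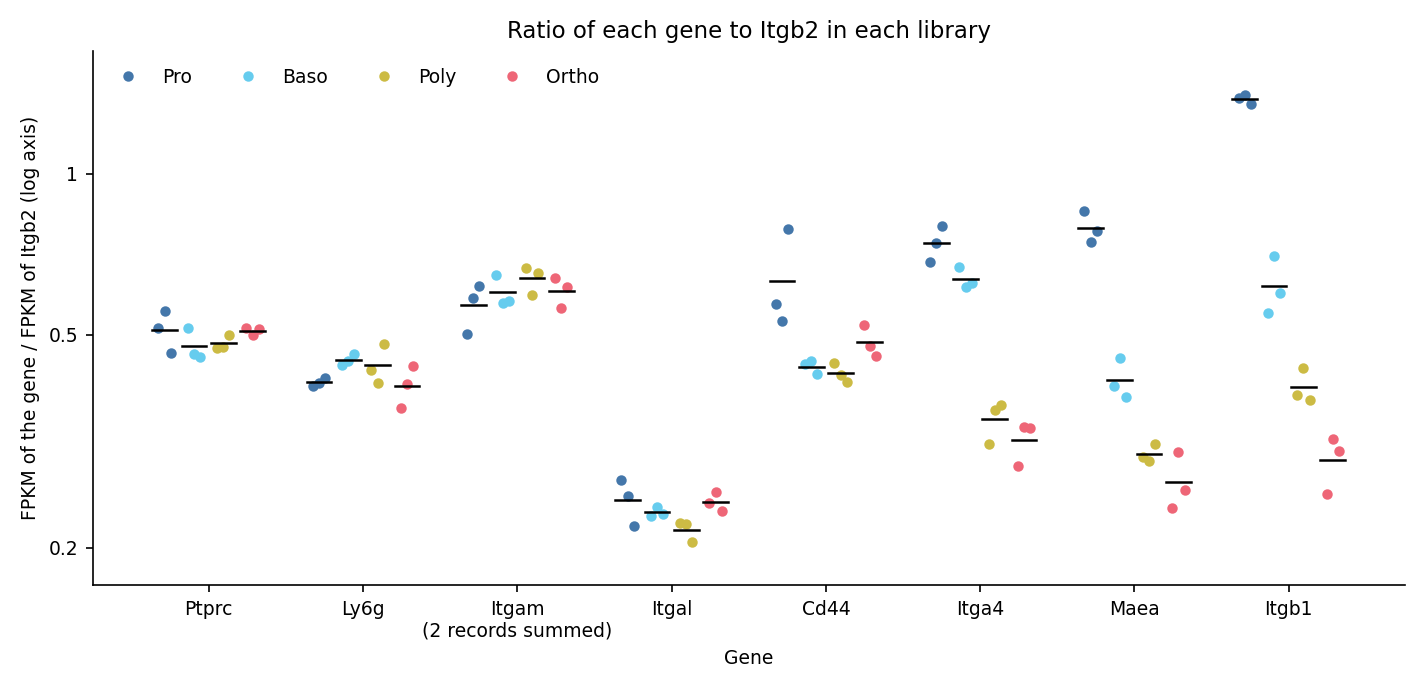
FPKM of each gene divided by the FPKM of Itgb2 in the same library (y axis, log scale), by gene (x axis) and stage (color). Each point is 1 library and the black line the mean of 3; Ptprc stayed between 0.454 and 0.555 in all 12 libraries, whereas Itgb1 went from a mean of 1.38 in Pro to 0.292 in Ortho.

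Most markers of neutrophils, which are among the leukocytes that express Itgam, Ly6g and the beta2 integrins, moved with these genes, as did B cell markers. The summed FPKM of 15 neutrophil markers lay between 7891 and 9597 in Pro, between 13205 and 15530 in Baso, between 17091 and 20349 in Poly and between 15274 and 19063 in Ortho. In Ortho compared with Pro 7 of the 15 were called higher and 14 passed the adjusted p, all higher, with a median of 0.97. At the same sum 1 was called and 12 passed the adjusted p, all higher, and without hemoglobin genes 13 were called. The smallest changes, outside the naming rule, were those of Prtn3 (0.26, adjusted p = 0.104), Elane (0.42, adjusted p = 0.00105) and Mpo (0.56, adjusted p = 0.000441). Rescaled to the same sum, these were -0.10, 0.05 and 0.19, and none passed the adjusted p. Per 1000 FPKM of the summed neutrophil markers, Ly6g amounted to 2.21 to 2.68 over the 12 libraries and Itgb2 to 5.33 to 6.63. Summed Itgam amounted to 3.13 to 4.15, Ptprc to 2.46 to 3.49, Itgal to 1.14 to 1.76 and Cd44 to 2.28 to 4.195. S100a9, a calcium-binding protein of neutrophils, averaged 2633 ± 648.2 FPKM in Pro and 6101 ± 784.3 FPKM in Ortho (SD, n = 3). Most of the neutrophil sum came from S100a9, S100a8 and Ngp, with means of 5028, 3332 and 2067 over the 12 libraries. B cell markers also rose, from a sum of 169 to 275 in Pro to 502 to 546 in Ortho, with 8 of 10 called higher and a median of 1.18. At the same sum 3 of these 10 were called and 9 passed the adjusted p, all higher.

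The macrophage list had a sum of 30.1 to 36.3 in Pro and 63.7 to 75.1 in Ortho, yet 8 of its 12 genes (C1qa, C1qb, C1qc, Cd163, Marco, Mrc1, Siglec1 and Spic) had a mean under 1 in every stage. T and NK cell markers summed to 22.2 to 33.0 in Pro and 39.3 to 44.95 in Ortho, with the T cell receptor genes Cd3d, Cd3e, Cd3g and Trac under 1 in every stage. Megakaryocyte markers summed to 69.6 to 126.6 in Pro and to 37.7 to 47.0 in Ortho. Erythroid markers summed to 21232 to 32501 in Pro and 168357 to 200897 in Ortho, mostly from Hba-a1 and Hbb-bs. The means of these genes in Ortho were 92608 and 86860. In Ortho compared with Pro 4 of the 10 erythroid markers were called higher and 3 lower, against 6.33% and 23.8% of all genes. The lower calls, outside the naming rule, were Klf1, Gata1 and Epor, with log2 fold changes of -2.19, -2.04 and -1.66. The part of leukocyte RNA in the levels of Ptprc, Itgam, Ly6g, Itgb2, Itgal and Cd44 was not tested, and in bulk samples fewer cells of a type and less RNA per cell cannot be told apart.

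The tested genes with the most similar pattern over the 12 libraries were found from the root mean square difference of log2(FPKM + 1), after each gene was centred on its own mean, among genes with a mean FPKM of at least 5. For Itgb2 they included Mcemp1 (0.0408) and the Rac activator gene Dock2 (0.0537), and for Itgal Myo1f (0.0448). For Ly6g they were the neutrophil surface gene Cd177 (0.0668), Anxa1 (0.0779) and Dgat2 (0.0782), and for Ptprc Aldh3b1 (0.0709), the complement gene C3 (0.0716) and Iqgap1 (0.0737). Summed Itgam was nearest to the chemokine receptor gene Cxcr2 (0.09), Adam19 (0.0982) and Mcemp1 (0.1021).

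Genes outside the leukocyte group had other neighbours. Those of Itgb1 were Ubqln1 (0.0676), the proteasome gene Psma1 (0.07) and Vps4a (0.0777), and those of Maea were Phka2 (0.0578), Gak (0.0667) and Thap1 (0.0682). Itga4 was nearest to Rnf14 (0.1037), Mocs1 (0.1075) and the carbonic anhydrase gene Car2 (0.1079), and Itga5 to Ybx1 (0.1052), Gtpbp6 (0.1166) and Ccng1 (0.1256). Cd44 had no close neighbour by this measure, the nearest being Smpdl3a (0.1315), Tbc1d23 (0.1318) and Acap2 (0.1343). The single Itgam records were further still from their nearest genes, at 0.2281 for the first (Cnot6l) and 0.4125 for the second (Cpeb4). Among the 10 genes themselves the closest pairs were Itgb2 and Ptprc (0.0823), Itgb2 and Ly6g (0.0986), Ptprc and Itgal (0.0995) and Itgb2 and Itgal (0.105).

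Since several of these genes moved together, the 250 bases before the transcript start were read from the RefSeq promoter table (GRCm38.p6), which held 7 of the 10 genes. The letters GAGGAA, or TTCCTC on the other strand, which are a core of the motif of the myeloid factor PU.1, occurred in 6 of the 7 genes (Cd44, Itga5, Itgam, Itgb1, Ly6g and Ptprc) and in 23.3% of all 32851 promoter windows. The letters AGATAA, or TTATCT, which are a motif of the erythroid GATA1 factor, occurred in 2 of the 7 (Cd44 and Ptprc) and in 9.99% of all windows. The 7 genes had 9 windows between them, and a gene was counted if any of its windows matched. A count of genes and a share of windows are unlike units, and enrichment was not tested. The matches lay in genes that rose and in genes that fell, and they describe letters and not binding. Parts of 4 windows are shown 5′ to 3′ on the strand of the gene, for 2 genes of the gate, for the gene of the stage gate and for Itgb1, which was called lower in Ortho, with the matches in capitals.
Itgam, plus strand, chr7:128062520-128062639: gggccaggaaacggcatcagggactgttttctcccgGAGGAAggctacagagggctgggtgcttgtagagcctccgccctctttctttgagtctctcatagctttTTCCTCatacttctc
Ly6g, plus strand, chr15:75155141-75155239: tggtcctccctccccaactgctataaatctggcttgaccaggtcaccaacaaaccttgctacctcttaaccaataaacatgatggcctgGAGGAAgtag
Cd44, minus strand, chr2:102901796-102901915: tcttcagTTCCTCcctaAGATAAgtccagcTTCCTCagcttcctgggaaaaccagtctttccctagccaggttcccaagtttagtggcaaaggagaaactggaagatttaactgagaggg
Itgb1, plus strand, chr8:128685534-128685653: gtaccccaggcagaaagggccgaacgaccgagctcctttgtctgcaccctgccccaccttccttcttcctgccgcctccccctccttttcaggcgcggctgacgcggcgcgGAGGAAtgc

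Itgam held 1 match on each strand, at positions -84 and -15 from its start, and in Cd44 an AGATAA at position -233 from the start stood between 2 TTCCTC.

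The other integrin chains were taken from a list of 20 genes, of which 19 were in the table and 8 were tested. In Ortho compared with Pro 3 were called higher and none lower, 6 were higher by the adjusted p alone, and the median was 0.40 (all genes, -0.42). Itgb7, whose product pairs with alpha4 and alphaE in lymphocytes, averaged 29.8 ± 7.03 FPKM in Pro and 60.6 ± 5.79 FPKM in Ortho (SD, n = 3), with a fitted log2 change of 1.02 (standard error 0.15, adjusted p = 7.38e-05). Itga1 rose from 1.92 ± 0.274 to 4.85 ± 0.405 (1.01, adjusted p = 1.28e-05), and Itgax, the CD11c chain that pairs with beta2, from 1.46 ± 0.151 to 4.10 ± 0.488 (1.05, adjusted p = 5.88e-05). All 3 lay just past the fold threshold, and none was called at the same sum, with a pseudocount of 5 or without Pro replicate 3, while 1 was called without Ortho replicate 1. Itga2b, the platelet alphaIIb chain, was higher by 0.39 (adjusted p = 0.0338) and Itga6, a laminin receptor chain, by 0.41 (adjusted p = 0.00693), both with adjusted p-values above 0.05 at the same sum. Itgb3, the partner of alphaIIb, had a mean of 6.03 ± 1.65 in Pro and 7.09 ± 0.222 in Ortho, with an adjusted p of 0.3 and a sign that turned at the same sum.

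Genes that activate integrins or link them to actin were read from a list of 20. Of the 16 that were tested, 1 was called in Ortho compared with Pro, and by the adjusted p alone 5 were higher and 7 lower, with a median of -0.16. Over all genes 30.1% were called and 22.7% and 53.2% were higher and lower by the adjusted p alone, and the last 2 shares are near those of the list. Fermt3 (kindlin-3), which binds the tails of beta chains in blood cells, fell to 68.2 ± 3.17 FPKM in Ortho from 120.9 ± 5.31 in Pro (SD, n = 3), by 0.82 on the log2 scale (adjusted p = 8.03e-07). Rasgrp2, an activator of Rap1, rose from 58.1 ± 8.75 to 89.6 ± 2.94 (0.63, adjusted p = 0.00012). Tln1 (talin) was lower by a change of -0.25 (adjusted p = 0.0148), which was 0.24 without hemoglobin genes and 0.15 after centring. Rap1a rose from 49.8 ± 5.49 in Pro to 80.8 ± 5.08 in Baso (0.69, adjusted p = 3.27e-05) and fell from 90.3 ± 2.29 in Poly to 54.5 ± 1.91 in Ortho (-0.72, adjusted p = 3.79e-05). The call was Parvb, outside the naming rule and singled out for that, a parvin that joins integrin-linked kinase to actin, with 42.7 ± 1.24 in Pro, 35.9 ± 0.138 in Poly and 9.38 ± 0.676 in Ortho. Its log2 fold change was -2.08 against Pro (adjusted p = 1.8e-09) and -1.83 against Poly (adjusted p = 1.37e-08).

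Of 12 genes for counter-receptors and other adhesion molecules of the island and the red cell, 10 were tested, and in Ortho compared with Pro 1 was called higher and 1 lower, with a median of 0.41. By the adjusted p alone 6 were higher and 3 lower. Of all genes, 6.33% and 23.8% were called higher and lower, and 22.7% and 53.2% passed the adjusted p in each direction. Icam4, a red cell ligand of integrins, averaged 43.9 ± 3.78, 84.5 ± 0.851, 74.9 ± 3.41 and 17.3 ± 0.767 FPKM from Pro to Ortho (SD, n = 3). It fell from Poly to Ortho by 2.05 on the log2 scale (adjusted p = 1.29e-08). Cd36, a scavenger receptor, rose from 10.3 ± 1.39 in Pro to 166.1 ± 10.2 in Ortho, a log2 fold change of 3.89 (standard error 0.24, adjusted p = 8.24e-08). Bsg (basigin, CD147) was highest in Baso, at 449.4 ± 7.25, and fell to 216.9 ± 4.22 in Ortho, below Pro by a change of -0.67 (adjusted p = 6.52e-06), with an adjusted p of 0.0746 without hemoglobin genes. Cd47, which signals to macrophage SIRPalpha, went from 130.5 ± 15.2 in Pro to 200.8 ± 12.3 in Baso (0.62, adjusted p = 9.79e-05). Its Ortho against Pro difference of 0.29 (adjusted p = 0.00878) became -0.08 at the same sum.

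Most tested genes for substrates and partners of CD45 were higher in Ortho, like Ptprc. Of 11 genes 9 were tested, and in Ortho compared with Pro 4 were called higher and none lower, 7 were higher by the adjusted p alone, and the median was 0.99. Ptprcap, the CD45-associated protein, rose from 24.6 ± 4.28 to 51.0 ± 7.77 (log2 fold change 1.02, adjusted p = 0.000224; SD, n = 3). Lyn rose from 21.8 ± 2.70 to 44.2 ± 2.57 (0.99, adjusted p = 1.49e-06). The calls outside the naming rule were the kinase genes Fgr (1.08, adjusted p = 4.51e-06) and Blk (1.01, adjusted p = 0.000907). None of the 9 was called at the same sum, and 2 were called without Pro replicate 3. Csk, the kinase that opposes CD45 at SRC kinases, had a mean of 73.6 ± 12.7 in Pro and 61.5 ± 3.79 in Ortho, with an adjusted p of 0.0708 and a sign that turned without hemoglobin genes and after centring.

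Other genes of the Ly6 family were also read, since anti-GR1 antibodies can bind Ly6C. Of 7 genes 5 were tested, of which 1 was called higher in Ortho compared with Pro and 4 were higher by the adjusted p alone, with a median of 0.93. Ly6c2 had a mean of 211.0 ± 28.1 in Pro and 402.5 ± 43.7 in Ortho (0.93, adjusted p = 3.57e-05; SD, n = 3), and Ly6c1 of 17.2 ± 2.11 and 35.1 ± 2.94 (0.99, adjusted p = 0.000246). Ly6d, a marker of lymphoid progenitors, was the call, with 14.3 ± 2.02 and 39.4 ± 2.42 (1.40, adjusted p = 1.92e-07). Ly6e had 289.1 ± 15.8 in Pro and 310.8 ± 36.8 in Ortho, with an adjusted p of 0.331 and a sign that turned at the same sum.

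Maea (ENSMUSG00000079562, plus strand, chr5:33335509-33373296) had an FPKM of 44.1, 40.7 and 39.9 in Pro, 33.8, 32.6 and 30.9 in Baso, 34.4, 30.0 and 34.4 in Poly, and 29.4, 30.5 and 29.0 in Ortho. The Pro libraries stood above all others, and the later stages overlapped with their neighbours. The means of Pro and Ortho were 41.6 ± 2.22 and 29.6 ± 0.804 (SD, n = 3), with a fitted log2 change of -0.47 (standard error 0.07, adjusted p = 0.000115), close to the median of all genes at -0.42. Without hemoglobin genes the value was 0.01 (adjusted p = 0.953) and after centring -0.08 (adjusted p = 0.389), so the decrease held only with the deposited values and at the same sum, among these scalings. The same applied to Baso compared with Pro, where -0.35 (adjusted p = 0.0019) became -0.04 and -0.05. Poly and Baso differed by 0.02 (95% interval -0.14 to 0.18).

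Other genes of the CTLH complex, in which Maea and Rmnd5a form the catalytic RING pair, changed in both directions. All 11 were tested, and in Ortho compared with Pro 4 were called higher and 2 lower, with 5 higher and 5 lower by the adjusted p alone and a median of 0.06. Ube2h, the ubiquitin-conjugating enzyme that works with the complex, averaged 13.2 ± 2.39, 29.1 ± 4.15, 32.0 ± 1.88 and 155.7 ± 6.37 FPKM from Pro to Ortho (SD, n = 3), with a fitted log2 change of 3.47 against Pro (standard error 0.13, adjusted p = 2.92e-09). Ypel5, a substrate-competing subunit, rose from 15.6 ± 1.83 in Pro to 39.1 ± 3.06 in Baso and 55.3 ± 3.84 in Ortho (1.76 against Pro, adjusted p = 3.81e-08). The scaffold genes Ranbp10 and Wdr26 reached 219.2 ± 3.02 and 173.7 ± 9.67 in Ortho, from 64.8 ± 9.84 and 56.4 ± 6.42 in Pro (1.75 and 1.61, adjusted p = 5.35e-08 and 4.6e-08).

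Gid8 and Gid4 went down. Gid8, a scaffold subunit, was 88.3 ± 6.91 in Pro, 134.5 ± 10.2 in Baso and 36.3 ± 2.10 in Ortho (-1.26 against Pro, adjusted p = 8.88e-08), and the substrate receptor Gid4 went from 15.1 ± 1.24 to 6.56 ± 0.364 (-1.08, adjusted p = 1.77e-06). These 6 directions were the same under every scaling, although Gid8 and Gid4 were short of the fold for a call without hemoglobin genes and after centring. Rmnd5a, the partner of Maea and named outside the rule after its values were seen, had 21.3 ± 3.17 in Pro and 32.1 ± 8.41 in Ortho, a log2 fold change of 0.54 (adjusted p = 0.0384) with an adjusted p of 0.446 at the same sum.

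**Figure D5:**
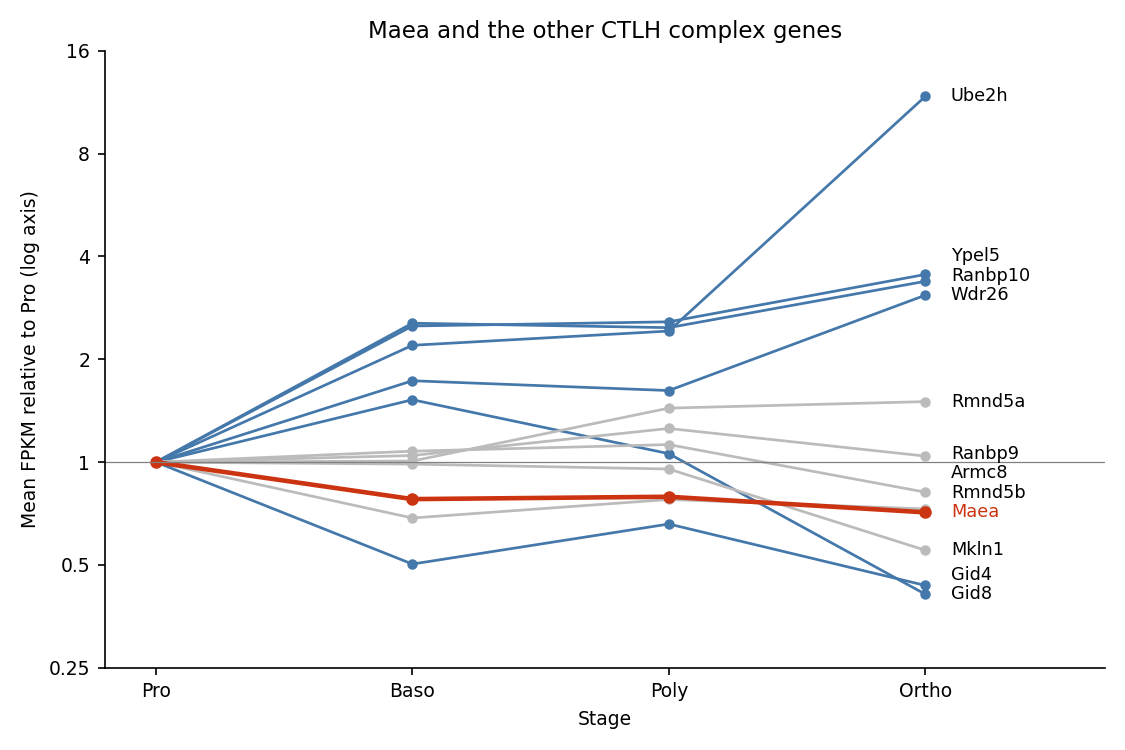
Mean FPKM of Maea (red) and 11 other CTLH complex genes relative to their own mean in Pro (y axis, log scale) across the 4 stages (x axis), with 3 libraries per stage. Blue lines are the 6 genes called in Ortho compared with Pro and grey lines the others; Ube2h went from a mean of 13.2 to 155.7 FPKM, and Maea from 41.6 to 29.6.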

How the data were processed

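RNA sequencing of 12 libraries from 4 stages was used. The authors trimmed reads with cutadapt and Trimmomatic, aligned them to mm10 with HISAT2, handled alignments with SAMtools, counted with featureCounts and deposited 1 FPKM value per gene and library; tool versions, annotation release and the tool for FPKM are not given in the sources used here. The methods describe KAPA libraries and the labels NEBNext. Libraries were assigned to stages by title, and the cell type label of Ortho replicates 2 and 3 names erythroblasts in general. Of 29839 lines, 1 repeated identifier was dropped.

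Stages were compared with limma 3.58.1 (R 4.3.3) on log2(FPKM + 1), with a variance trend and all 12 libraries in one model, two-sided, with Benjamini-Hochberg adjustment over 12994 genes. The model was tested on simulated data. The authors used DESeq2 on counts, which FPKM does not allow. Depth is unknown: over 5051 genes with values under 0.03, 3.88% of ratios between libraries lay in the most common bin. Summed FPKM was 505624 to 691033, and 11964 to 12297 genes per library reached 1. All value columns were used.

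Positions are from GENCODE M21 on mm10. Tables and figures were made with Python 3.11.15, numpy 2.4.6, pandas 2.3.3 and matplotlib 3.10.9. Named were all 10 genes, the 4 most abundant tested genes of each pathway or marker list, integrin and CTLH genes called in Ortho vs Pro, and the 3 nearest patterns; few marker genes are printed, and some genes that the rule names are not reported here. The genes and lists were chosen with earlier results of these data known.

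Libraries with the same number deviated together between Baso and Poly (r = 0.182 to 0.238), Baso and Ortho (0.156 to 0.264) and Poly and Ortho (0.156 to 0.319). These 3 stages may therefore be paired by number, although no source says what a number stands for. The main model left the replicate number out. With Pro the correlations were 0.0052 to 0.0968. Other pseudocounts, filters, scalings, models, a replicate block and leaving out libraries were alternatives. Protein and flow cytometry data were not analysed here.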

Additional observations from a re-analysis of the deposited data

How the results depend on the processing

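The number of records called in Baso compared with Pro went from 2 to 1 with a pseudocount of 5, after centring or with the Itgam records summed (added after the data were seen), and to 9 with the adjusted p as the only criterion. From 0 each, that criterion gave 5 between Baso and Poly and 1 between Poly and Ortho. Of all genes, 57.0% passed it between Pro and Baso, 12.4% between Baso and Poly and 26.1% between Poly and Ortho. In Ortho compared with Pro the count went from 6 to 3 with a pseudocount of 5 or at the same sum. At the same sum 1 of these was higher and 2 were lower. Without hemoglobin genes or after centring the count was 7, all higher. Cd44 and the first Itgam record were then called, and Itgb1 was not. Leaving out 1 library gave 1 to 2 in Baso (1 without Pro replicate 2) and 4 to 7 in Ortho (4 without Pro replicate 3 or Ortho replicate 1) against Pro, and 0 in the other comparisons.

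For the lists in Ortho compared with Pro, a pseudocount of 5 or the same sum left 0 of 3 integrin subunits and 0 of 4 CD45 partners, and a mean FPKM of at least 5 left 1 integrin subunit. At a pseudocount of 0.1 there were 2 integrin activation genes in place of 1, 4 island genes in place of 2 and 2 Ly6 genes in place of 1. Without hemoglobin genes and after centring the counts were 5 and 4 for integrin activation (4 at the same sum), 4 and 4 for island genes, 7 and 7 for CD45 partners and 3 and 4 for Ly6 genes. Of the activation genes 4 and 3 were then higher and 1 lower, whereas all 4 at the same sum were lower. The island genes called were then all higher, and Icam4 was short of the fold (-0.81 and -0.89). With the adjusted p alone, which 75.9% of all genes passed, the counts were 6 of 8 integrin subunits and 12 of 16 activation genes. That criterion also gave 7 of 7 CD44 partners, 9 of 10 island genes and 10 of 11 CTLH genes. For CD45 partners and Ly6 genes it gave 7 of 9 and 4 of 5. Leaving out 1 library gave 0 to 3 integrin subunits, 1 to 2 activation genes (2 without Pro replicate 3), 2 to 5 CD45 partners, 1 to 2 Ly6 genes (2 without Pro replicate 2 or 3 or Ortho replicate 3), 4 to 5 CD44 partners, 2 to 3 island genes and 6 CTLH genes. The causes were not tested.

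For single records, 941 fits under alternatives kept direction and side of the threshold, 32 no longer passed and 28 newly passed the adjusted p, and 29 turned direction. Turned log2 values in Ortho compared with Pro were those of Itga4 (0.36 without hemoglobin genes, 0.28 after centring) and Maea (0.0058). In Ortho compared with Poly they were, without hemoglobin genes and after centring, Itga4 (0.048 and 0.057), the first Itgam record (0.051 and 0.060) and Ly6g (0.049 and 0.057), after centring Maea (0.004), and at the same sum Itgb2 (-0.15), the second Itgam record (-0.17) and Ptprc (-0.074). At the same sum Cd44 (-0.10) and the first Itgam record (-0.035) turned in Baso compared with Pro, and after centring Maea (-0.028) between Baso and Poly. Leaving out 1 library gave ranges across 0 for Cd44 (-0.0056 to 0.23) and the first Itgam record (-0.12 to 0.39) in Baso compared with Pro, Maea (-0.013 to 0.084) between Baso and Poly, and Itgb2 (-0.037 to 0.11) and the Itgam records (-0.38 to 0.21 and -0.15 to 0.14) in Ortho compared with Poly. The replicate block moved no adjusted p across the threshold other than those given for Cd44, Itgam and Itgal. Unknown depth limits the precision of Itga5, the lowest of the genes.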
